A study of Homo sapiens with 4 samples.

Results

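The snoRNA host lncRNAs GAS5, SNHG1, SNHG5, SNHG6, SNHG7, SNHG8, SNHG12, SNHG15, SNHG16 and ZFAS1 were followed through RNA-seq of LNCaP cells, an androgen-sensitive human prostate cancer line. These 10 genes were chosen by name, as spliced noncoding RNAs whose decay is known to depend on translation, and were found by Entrez Gene identifier among the 19801 genes of the files. They and the gene lists set beside them were chosen with earlier results of these data known. The study asked whether ailanthone (AIL), a natural compound from *Ailanthus altissima*, acts on cells that carry the plasmid construct AR1-651. Cells received the empty vector plasmid or the AR1-651 plasmid for 24 h and were then left without AIL or given AIL for 12 h, which made 4 conditions. They are called, in this order throughout, empty vector and empty vector + AIL, then AR1-651 and AR1-651 + AIL. All were grown in RPMI medium with serum and antibiotics, and all came from the same line by transient transfection. The share of cells that took up plasmid and the AIL concentration of these libraries are not given in the labels. Each condition was sequenced as 1 library, so the differences below stand without any replicate and without a test.

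Expression was deposited as RPKM, reads per gene divided by its exon length and by library size, rounded to 2 decimals. The number of reads was not given with these values. Short genes stepped through a few shared values, and the ratio between those steps put the depth of the other libraries at 0.948 to 1.12 times that of empty vector. The 10 luminal prostate markers were present in every library, the lowest being SLC45A3 at 2.79 RPKM with empty vector + AIL. Of 10 markers of basal, immune, stromal, endothelial and neuroendocrine cells, 7 had values. These summed to 15.5 to 18.2 RPKM per library, most of it CD68 (8.31 to 12.2). KRT5, TP63 and CD3E had no values, so no basal marker was measured. COL1A2 was listed at 0 with empty vector + AIL, and the neuroendocrine marker SYP was higher with AIL in both backgrounds (0.88 and 4.98 RPKM with empty vector, 2.50 and 4.49 RPKM with AR1-651). The part of these markers in the results was not tested. KLK3, which encodes PSA, had 287 RPKM in the library labelled empty vector and 1442 in the library labelled AR1-651. Conditions are named here by their labels, and every direction with AR1-651 is that of the library labelled AR1-651.

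A snoRNA host gene is transcribed and spliced as a long RNA whose introns carry small nucleolar RNAs. The introns are trimmed to snoRNAs, box C/D snoRNAs guiding 2′-O-methylation and box H/ACA snoRNAs guiding pseudouridylation of ribosomal RNA, while the joined exons leave the nucleus as a noncoding RNA. Ribosomes engage the short reading frames of these exported RNAs, and nonsense-mediated decay (NMD), which depends on translation, then removes them, so that blockers of translation are known to raise their levels. Many such hosts start with a run of pyrimidines, the terminal oligopyrimidine (TOP) tract that they share with ribosomal protein mRNAs. GAS5, SNHG1, SNHG5, SNHG6, SNHG16 and ZFAS1 are hosts of box C/D snoRNAs. SNHG7, SNHG8 and SNHG15 are hosts of box H/ACA snoRNAs, and SNHG12 carries both kinds.

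The 5′ ends are shown because this tract is a sequence feature of the class that the choice of genes did not use. Each sequence is the first 30 bases of an annotated transcript of GENCODE release 29 that starts within 30 bases of a transcript listed in the files, read 5′ to 3′; of several such starts the one with the longest run was taken, for all genes alike. Capitals mark an unbroken run of C and T of at least 4 bases that begins with C at the first base.
GAS5: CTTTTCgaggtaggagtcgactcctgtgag
SNHG16: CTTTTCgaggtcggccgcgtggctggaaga
SNHG5: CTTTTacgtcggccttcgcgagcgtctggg
SNHG8: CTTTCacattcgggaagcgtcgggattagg
ZFAS1: CTTTCgcgtctgcggtgcccggagtgtggt
SNHG12: CCTTCCTgcgcgccgttccccgctagtcgc
SNHG7: CTCTgcgtgcgccggaggctgccgtggcgg
SNHG1: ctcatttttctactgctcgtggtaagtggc
SNHG15: tccactgagttgacacgcagacgcagcctc

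For GAS5 and SNHG1 that start belongs to a transcript annotated as retaining an intron. On GRCh38, each of these windows lies in the first exon of its transcript. They are chr1:173867960-173867989 (minus strand) for GAS5, chr17:76557769-76557798 (plus strand) for SNHG16, chr6:85678704-85678733 (minus strand) for SNHG5, chr4:118278758-118278787 (plus strand) for SNHG8 and chr20:49278642-49278671 (plus strand) for ZFAS1. Those of SNHG12, SNHG7, SNHG1 and SNHG15 are chr1:28581789-28581818, chr9:136728155-136728184, chr11:62855856-62855885 and chr7:44986805-44986834, all on the minus strand. SNHG6 lies on chromosome 8 from 66921684 to 66926398, on the minus strand, and its sequence is not shown. The authors' processing notes name hg19, and no RPKM value or difference was computed from these positions. GRCh38 positions served to choose starts near a listed one and to find overlapping genes. By this rule 7 of the 10 hosts began with a pyrimidine run, and SNHG1, SNHG6 and SNHG15 did not. The same run was found for 5.40% of 1981 other lncRNA genes of the files, 9.85% of 15737 other protein-coding genes and 44.7% of 85 cytosolic ribosomal protein genes. A gene with more annotated starts had more chances of a run, and the sets were not matched for this. The starts shown for GAS5 and SNHG16 belong to transcripts outside the listed ones. A run at an annotated start is a description of the letters, and annotated starts can be off by a few bases.

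The listed transcripts of the hosts ran from 327 nt (a transcript of SNHG8) to 2424 nt (a transcript of SNHG16), with 2 to 12 exons. GAS5, named for its accumulation in growth-arrested cells, had 12 exons in 632 nt. The first reading frame opened by an ATG was 50 codons long in GAS5, 5 codons in SNHG1, 18 codons in SNHG15 and 64 to 67 codons in SNHG7. A splice junction more than 50 nt after the stop codon is the usual mark of an NMD substrate. All 10 hosts had a listed transcript with such a junction after the first reading frame, as did 77.5% of 1977 other lncRNA genes. SNHG1 had 9 of these junctions and GAS5 had 5. The 2157 nt transcript of SNHG7 and the 327 nt transcript of SNHG8 had 0.

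With empty vector the hosts spanned a 22.7-fold range, from 10.98 RPKM for SNHG12 to 249.6 RPKM for GAS5. RPKM is a value per exon length, which allows a rough ranking of genes within a library. Reads over splice junctions may have been lost, more so for hosts with many short exons, so the ranking is approximate. GAS5 (249.6) and SNHG8 (241) were nearly level at the top, followed by ZFAS1 (126) and SNHG6 (89.1). SNHG16, SNHG1 and SNHG5 lay between 28.1 and 28.9 RPKM, SNHG15 and SNHG7 at 20.5 and 20.3 RPKM, and their order within these groups cannot be read from single libraries. The 10 hosts summed to 843 RPKM with empty vector and 1694 RPKM after AIL, and to 1609 RPKM with AR1-651 and 2119.9 RPKM after AIL. As a share of all RPKM of a library it was 0.168%, 0.316%, 0.249% and 0.374% in the same order.

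**Figure D1:**
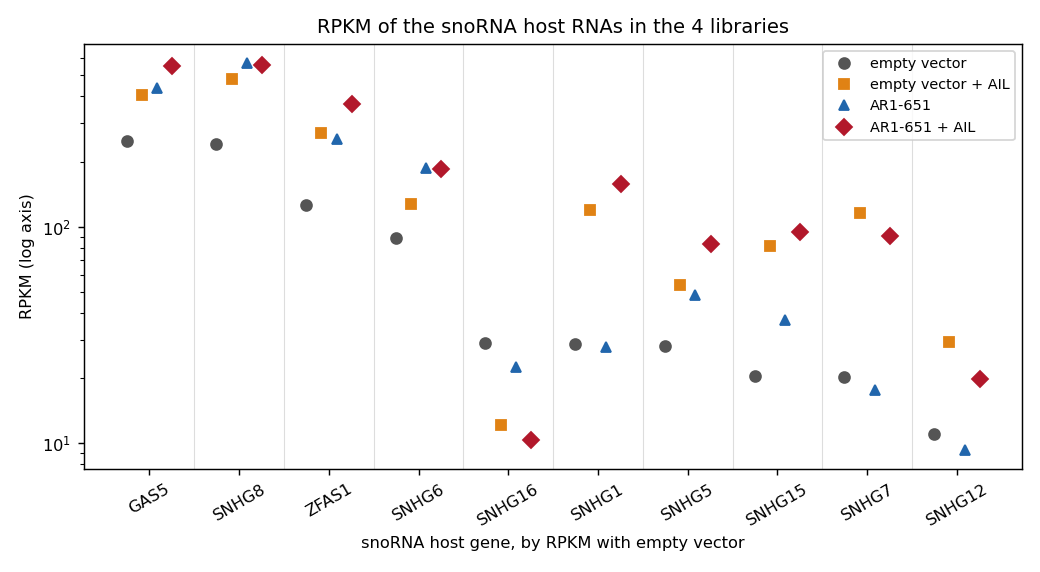
RPKM (log axis) of each snoRNA host gene in the 4 libraries, 1 point per library, with genes ordered by their level with empty vector. Both libraries with AIL lie well above both without it for SNHG1, SNHG7, SNHG12 and SNHG15 and by smaller gaps for SNHG5 and ZFAS1, and they lie below both for SNHG16.

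AIL in cells with empty vector addresses what the compound did without AR1-651. Hosts were mostly higher with AIL: SNHG7 by 5.69-fold in RPKM, SNHG1 by 4.15-fold, SNHG15 by 3.96-fold, SNHG12 by 2.67-fold and ZFAS1 by 2.14-fold. SNHG16 stood apart at 0.418 times its level with empty vector. The other 4 were higher by 1.43-fold (SNHG6) to 1.99-fold (SNHG8). Differences were then taken as log2(RPKM + 1), which slightly understates low genes, and a gene counted as past 2-fold from a difference of 1 on this scale, over the 14626 genes with at least 1 RPKM in at least 1 library. All 10 hosts were among these genes. On this scale 5 of 10 hosts were at least 2-fold higher, where 9.53% of all genes were, and 1 of 10 was at least 2-fold lower, where 9.03% of all genes were. The median difference of the hosts was 1.04 and that of all genes was -0.02.

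SNHG7, host of H/ACA snoRNAs on chromosome 9, had 20.3 and 115 RPKM with empty vector, without and with AIL, and 17.5 and 90.8 RPKM with AR1-651. Both libraries with AIL were thus above both without it, and by a wide gap. The log2 difference was 2.45 with empty vector and 2.31 with AR1-651, the 106th and the 142nd highest of 14626 genes.

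SNHG1, the host of SNORD22 and of the SNORD25 to SNORD31 cluster, had 28.7 and 119 RPKM with empty vector, without and with AIL, and 28.0 and 158 RPKM with AR1-651. Without AIL the backgrounds differed by less than 1 RPKM. The log2 difference with AIL was 2.02 with empty vector and 2.46 with AR1-651, the 193rd and the 113th highest.

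SNHG15, host of SNORA9, had 20.5 and 81.2 RPKM with empty vector, without and with AIL, and 37.25 and 94.1 RPKM with AR1-651. Its level was lowest in the empty vector library and highest with both AR1-651 and AIL. With AIL the log2 difference was 1.93 with empty vector and 1.31 with AR1-651, the 220th and the 1202nd highest.

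SNHG12 was the least abundant host without AIL, with 10.98 and 29.4 RPKM with empty vector, without and with AIL, and 9.35 and 19.8 RPKM with AR1-651. Again both libraries with AIL lay above both without it. The log2 difference with AIL was 1.34 with empty vector and 1.01 with AR1-651, just past the 2-fold line, and with median-ratio scaling the latter was 0.80. SNHG12 shares exon sequence on the opposite strand with TRNAU1AP, a factor of selenocysteine incorporation, which had 13.9, 24.1, 21.0 and 30.1 RPKM in the order of the conditions given above. The library kit keeps strand, but whether reads were counted by strand is not given, so the share of each gene in these reads cannot be told apart.

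SNHG16, host of SNORD1A, SNORD1B and SNORD1C, went the other way. It had 28.9 and 12.1 RPKM with empty vector, without and with AIL, and 22.4 and 10.4 RPKM with AR1-651. Both libraries with AIL were below both without it, at 0.418 times the level in empty vector and 0.463 times in AR1-651. The log2 difference was -1.19 and -1.04, the 840th and the 770th lowest of 14626 genes. SNHG16 carries a pyrimidine run at its start, as SNHG7 and SNHG12 did. SNHG1 and SNHG15, also at least 2-fold higher with AIL in both backgrounds, had no such run by the rule used. For SNHG1 the run was 3 bases, under the minimum of 4. The rule found a run for only 44.7% of 85 ribosomal protein genes, so a missing run does not show that a TOP tract is absent. The part of such runs in these differences was not tested. A junction after the first reading frame was found for SNHG16 as for all 10 hosts, and for 77.5% of other lncRNA genes.

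**Figure D2:**
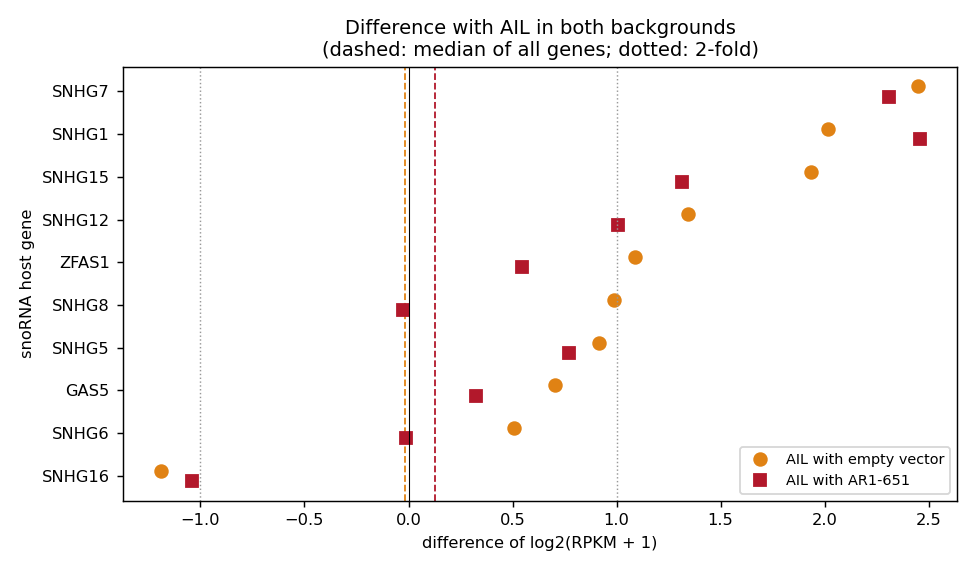
Difference of log2(RPKM + 1) with AIL for each host, with empty vector (circles) and with AR1-651 (squares). Dashed lines are the medians of all genes and dotted lines mark 2-fold. SNHG7, SNHG1, SNHG15 and SNHG12 lie past 2-fold on the right in both backgrounds and SNHG16 on the left in both, while SNHG8 and SNHG6 lie near 0 with AR1-651.

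The more abundant hosts were less apart. ZFAS1, transcribed antisense to the 5′ end of ZNFX1, had 126 and 270.3 RPKM with empty vector, without and with AIL, and 253 and 370.01 RPKM with AR1-651. In log2 the difference with AIL was 1.09 with empty vector and 0.55 with AR1-651. The first value fell just under 2-fold with equal RPKM sums (0.999) and after removal of the length trend (0.97). ZNFX1, which overlaps it on the opposite strand, had 10.8, 13.1, 5.15 and 7.54 RPKM in the same order.

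SNHG8, host of SNORA24, was the most abundant host in the library labelled AR1-651. It had 241 and 479 RPKM with empty vector, without and with AIL, and 568 and 558 RPKM with AR1-651, so that empty vector stood below the other libraries. The log2 difference with AIL was 0.99 with empty vector, just outside the 2-fold line, and -0.03 with AR1-651, a sign that turned with equal RPKM sums (0.17).

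SNHG6, host of SNORD87, had 89.1 and 127 RPKM with empty vector, without and with AIL, and 186 and 184 RPKM with AR1-651. The log2 difference with AIL was 0.51 with empty vector and -0.01 with AR1-651, which turned to 0.18 with equal RPKM sums. The libraries labelled AR1-651 were above both others.

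GAS5 had 249.6 and 407 RPKM with empty vector, without and with AIL, and 439 and 551 RPKM with AR1-651. Its log2 difference with AIL was 0.70 with empty vector and 0.33 with AR1-651, and neither reached 2-fold. GAS5-AS1, its antisense neighbour, stayed between 0.29 and 1.03 RPKM.

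SNHG5, host of the SNORD50 pair, had 28.1 and 53.9 RPKM with empty vector, without and with AIL, and 48.4 and 83.25 RPKM with AR1-651. With AIL it differed in log2 by 0.91 with empty vector and 0.77 with AR1-651. Like GAS5, SNHG5 was lowest with empty vector and highest with AR1-651 + AIL.

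AIL in cells with AR1-651 asks the same of the other background, from another pair of libraries. At least 2-fold higher were 4 of 10 hosts (SNHG1, SNHG7, SNHG15 and SNHG12), where 14.9% of all genes were, and SNHG16 was the 1 host at least 2-fold lower, where 5.74% of all genes were. The median difference of the hosts was 0.66, against 0.13 over all genes. With median-ratio scaling, which moved the median of all genes from 0.13 to -0.03, the median of the hosts became 0.44, and SNHG12 no longer reached 2-fold. With equal RPKM sums SNHG16 was at -0.86. The difference between the 2 backgrounds was not tested, since it rests on 1 library of each kind.

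**Figure D3:**
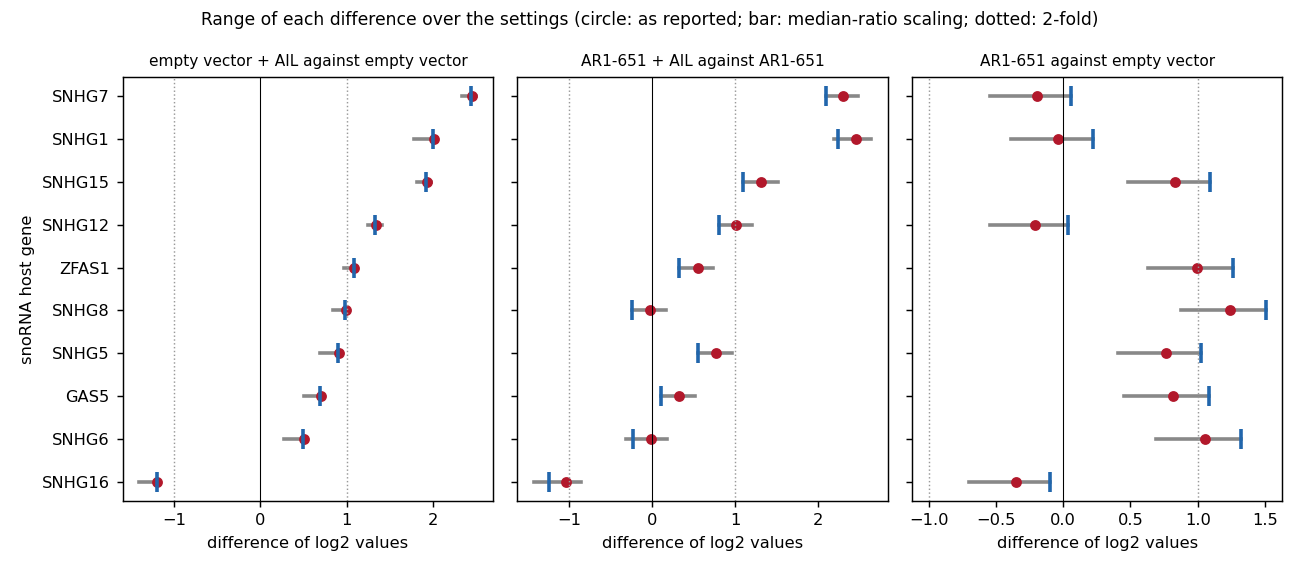
Range of each difference over the processing settings (grey line), with the value as reported (circle) and with median-ratio scaling (bar), for AIL with empty vector, AIL with AR1-651 and AR1-651 against empty vector. With AIL, SNHG7, SNHG1 and SNHG15 stay past 2-fold over the settings shown; without AIL, several differences with AR1-651 move across the 2-fold line.

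AR1-651 against empty vector, both without AIL, addresses the effect of the construct. The hosts fell into groups by size of difference. SNHG8 (1.24 on the log2 scale), SNHG6 (1.05), ZFAS1 (0.99), SNHG15 (0.83), GAS5 (0.81) and SNHG5 (0.76) were higher in the library labelled AR1-651. SNHG1 (-0.04), SNHG7 (-0.20) and SNHG12 (-0.21) differed little, with signs that turned under median-ratio scaling (0.22, 0.06 and 0.03), and SNHG16 was at -0.35. At least 2-fold higher were 2 of 10 hosts, SNHG8 and SNHG6, where 4.01% of all genes were, and 0 of 10 were at least 2-fold lower, where 11.6% of all genes were. ZFAS1, at 0.99, was just outside. The median difference of the hosts was 0.79, against -0.30 over all genes.

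Transcript length and ribosomal protein genes moved with this comparison. The median difference of all genes was 0.17 in the sixth with the shortest transcripts (up to 1387 nt) and -0.69 in the sixth with the longest. All 6 hosts that were higher (SNHG8, SNHG6, ZFAS1, SNHG15, GAS5 and SNHG5) belong to the shortest sixth by their longest listed transcript, 430 to 1008 nt, and so does SNHG12 at 682 nt. Ribosomal protein genes held 33.0% of all RPKM in the library labelled AR1-651, against 23.1% with empty vector. Their median difference was 0.86, and 34 of 85 were at least 2-fold higher, where 4.01% of all genes were. After removal of the length trend the median of the hosts was 0.65, against -0.02 over all genes, and 1 host was past 2-fold. The number of hosts above the median of all genes was 9 as reported and 6 after this removal. With median-ratio scaling the median of all genes moved from -0.30 to -0.09, and the number of hosts past 2-fold went from 2 to 6, namely SNHG8, SNHG6, ZFAS1, SNHG15, GAS5 and SNHG5. With equal RPKM sums it was 0. The number of hosts past 2-fold with AR1-651 therefore depended on the scaling.

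**Figure D4:**
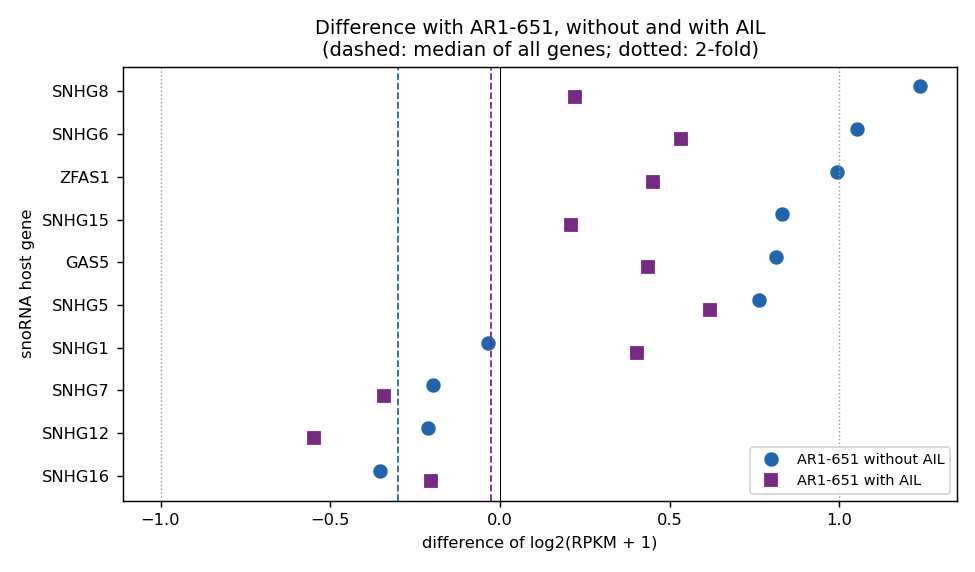
Difference of log2(RPKM + 1) between the libraries labelled AR1-651 and empty vector for each host, without AIL (circles) and with AIL (squares). Dashed lines are the medians of all genes and dotted lines mark 2-fold. Without AIL 6 hosts lie at 0.76 or above and the other 4 at or below -0.04, and with AIL all 10 lie within 2-fold.

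Between the libraries with AIL, AR1-651 + AIL against empty vector + AIL, 0 of 10 hosts were 2-fold higher, where 1.46% of all genes were, and 0 of 10 were 2-fold lower, where 3.53% were. The differences ran from -0.55 for SNHG12 to 0.62 for SNHG5, with a median of 0.31 against -0.03 over all genes. SNHG1 was at 0.40, SNHG6 at 0.53, ZFAS1 at 0.45 and GAS5 at 0.44, whereas SNHG7 was at -0.34 and SNHG16 at -0.20. These comparisons share libraries with those above, so they are no separate evidence.

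Other noncoding hosts of snoRNAs were set beside the 10. Both lists were chosen with earlier results of these data known, so the contrast between them is a description. Of 18 listed by name, 13 were in the files and 12 passed 1 RPKM in a library. With AIL and empty vector, 1 of 12 (SNHG11, 1.17) was at least 2-fold higher and 1 (SNHG4, -1.19) at least 2-fold lower, where 9.53% and 9.03% of all genes were. The median of these hosts was -0.08. With AIL and AR1-651, SNHG11 (1.58) and SNHG17 (1.27) were 2-fold higher and 0 were 2-fold lower, where 14.9% and 5.74% of all genes were. The median of these hosts was 0.04. SNHG11 had 4.90 and 12.25 RPKM with empty vector and 3.67 and 12.9 with AR1-651, without and with AIL. DANCR, a host of SNORA26, was lower with AIL, 203 and 120 RPKM with empty vector and 193 and 96.7 with AR1-651. Over 1340 other lncRNA genes the median difference with AIL was -0.25 with empty vector and 0.04 with AR1-651. Ribosomal protein genes, whose mRNAs bear TOP tracts, had medians of 0.06 and -0.51.

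Coding mRNAs known as NMD targets also differed with AIL. In the list of 7, 5 were at least 2-fold higher with empty vector, and 4 with AR1-651, where 9.53% and 14.9% of all genes were. In either background 0 of this list were 2-fold lower, where 9.03% and 5.74% of all genes were. The list does not hold every known target. SMG5, placed below among the decay factors though its mRNA is a known NMD target, was at -1.09 and -1.02. The median of the list was 1.69 and 1.42. ATF3, a stress-induced transcription factor, had 7.08 and 145 RPKM with empty vector and 13.8 and 159.5 RPKM with AR1-651, without and with AIL. GADD45A, a stress gene of growth arrest and DNA repair, had 21.3 and 229 RPKM with empty vector and 31.2 and 227 with AR1-651. ATF4, the central factor of the integrated stress response, had 171 and 703 RPKM with empty vector and 272 and 727 with AR1-651. GADD45B was higher by 1.69 and 1.79 on the log2 scale and DDIT3 by 1.13 and 0.13. TBL2 stood at 0.99 and 0.50, and UPP1, a uridine phosphorylase, at 0.26 and -0.57. ATF4, ATF3, DDIT3 and the GADD45 genes are also induced by stress at the level of transcription, which RPKM cannot tell apart from slower decay.

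**Figure D5:**
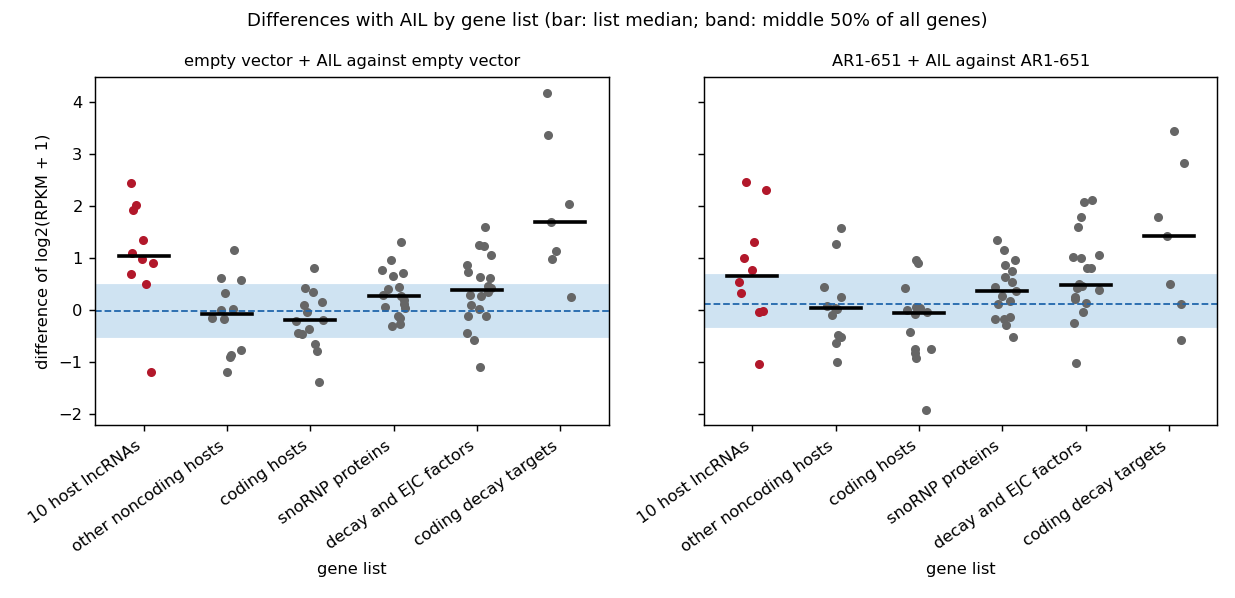
Differences of log2(RPKM + 1) with AIL by gene list, with empty vector (left) and with AR1-651 (right); each point is 1 gene, black bars are list medians, the dashed line is the median of all genes and the band their middle 50%. The bars of the 10 hosts stand at 1.04 and 0.66 and those of the coding decay targets at 1.69 and 1.42.

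The factors that carry out NMD, with those of the exon junction complex (EJC) that marks spliced RNA, numbered 20, and all were measured. With AIL and empty vector 4 were at least 2-fold higher and 1 lower, where 9.53% and 9.03% of all genes were, and the median was 0.39. With AIL and AR1-651 6 were higher and 1 lower, where 14.9% and 5.74% of all genes were, and the median was 0.48. SMG9, a partner of the SMG1 kinase, had 7.04 and 23.2 RPKM with empty vector and 3.04 and 13.0 with AR1-651, without and with AIL. UPF3B, which links UPF2 to the junction complex, had 8.96 and 22.6 RPKM with empty vector and 7.47 and 35.9 with AR1-651. SMG8 (1.23) and MAGOH (1.07) were past 2-fold with empty vector, and UPF2 (2.07) and PNRC2 (1.60) with AR1-651. SMG5, which recruits decay enzymes and whose own mRNA is a known NMD target, was lower, with 30.4 and 13.7 RPKM with empty vector and 14.1 and 6.48 with AR1-651. UPF1, the helicase at the centre of NMD, had 36.3 and 39.3 RPKM with empty vector and 21.0 and 17.5 with AR1-651. With AR1-651 and no AIL, 5 of the 20 factors were lower by 2-fold or more, among them SMG1 (-1.67), and 0 were higher, where 11.6% and 4.01% of all genes were. The median of all genes in that comparison was -0.30, and -0.69 in the sixth with the longest transcripts.

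The snoRNAs held in the hosts' introns were at the limit of these libraries. Of 36 listed, 25 were in the files, and 8 to 9 of the 25 were listed at 0 in each library. Genes of equal length shared values: with empty vector + AIL, SNORA9, SNORA15, SNORA33, SNORA66 and SNORA68, all of equal length, each had 2.10 RPKM, so that such a value may be a single read. The snoRNAs of the hosts summed to 125 and 116 RPKM with empty vector, without and with AIL, and 164 and 126 RPKM with AR1-651. The 8 snoRNAs of SNHG1 summed to 24.9, 27.5, 45.0 and 37.2 RPKM in the same order. The gene SNHG1 went from 28.7 to 119 and from 28.0 to 158 RPKM with AIL, values in which spliced and unspliced RNA cannot be told apart. The 6 snoRNAs of GAS5 that were measured summed to 67.7, 58.0, 66.7 and 63.2 RPKM. The 4 of SNHG12 summed to 14.7, 14.9, 30.6 and 14.5 RPKM. SNORA9, in SNHG15, had 0, 2.10, 3.66 and 1.77 RPKM. Ribosomal RNA depletion and selection with oligo(dT) beads, both named for these libraries, recover snoRNAs differently, and which was used is not settled. With this and the values near a single read, no difference of a snoRNA could be read between single libraries.

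Likeness of pattern was measured as the Euclidean distance between log2(RPKM + 1) profiles over the 4 libraries, each centred on its own mean, to the median profile of the hosts (-0.83, 0.16, 0.02 and 0.56 in the order of the conditions given above). Among the hosts, ZFAS1 (0.130), SNHG5 (0.193) and GAS5 (0.253) lay nearest to it and SNHG16 (2.11), SNHG7 (1.86) and SNHG1 (1.61) farthest. Of 11861 other genes with at least 1 RPKM in every library, the nearest were EMC7 (0.0702), MRPS23 (0.0715), ZNF407-AS1 (0.0860), HCCS (0.0930) and HDDC3 (0.104). EMC7, a subunit of the ER membrane complex, had 71.1, 144, 135 and 195 RPKM in the same order. With 4 libraries many genes come close to any profile, so likeness is a description. In bulk RNA a lower level can be less RNA per cell or fewer cells with it, and these cannot be told apart here.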

How the data were processed

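RNA from LNCaP cells of 4 conditions, 1 library each, was sequenced by the authors on the Illumina HiSeq2000, and the deposited RPKM values were used as given. The methods describe a strand-specific kit with ribosomal RNA depletion, while the labels also name oligo(dT) beads. The submitters' processing notes name BWA 0.7.10-r789 and hg19. The counting tool, annotation release and whether counting used strand are not given in the sources used here. BWA does not split reads over introns, so junction reads of hosts with short exons may have been lost.

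The members and lists were chosen with earlier results of these data known. Groups came from the labels. Symbols came from a RefSeq gene table (19703 of 19801 genes matched), and transcripts and 5′ ends from GENCODE release 29 on GRCh38 through RefSeq accessions. Differences of log2(RPKM + 1) were taken over the 14626 genes that reached 1 RPKM in any library, and 2-fold was the threshold. All members were named. Of each other list, genes with the largest differences with AIL were named, and likeness named the 5 nearest genes; UPF1, CD68 and SYP were named after their values were seen. Alternatives were a pseudocount of 0.1, median-ratio scaling, equal RPKM sums with and without ribosomal protein genes, other filters, 1.5-fold, and removal of length and GC trends (polynomials of degree 3 in the rank, for the 95.8% of genes with both values). With no replicates no test was run, and single values carry no error. The calculations were tested on simulated data. Python 3.11.15, NumPy 2.4.6 and pandas 2.3.3 were used. The level of the gene carried by the plasmid is not reported here.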

Additional observations from a re-analysis of the deposited data

Results flagged for a closer look

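For 3 hosts a difference changed sign, for SNHG8 and SNHG6 between backgrounds and for SNHG1 between the libraries without and with AIL, and none of these changes was tested. SNHG8 differed with AIL by 0.99 with empty vector and by -0.03 with AR1-651, a gap of -1.01 on the log2 scale. SNHG6 differed by 0.51 and -0.01, a gap of -0.52. For both, the sign with AR1-651 turned positive with equal RPKM sums. SNHG1 differed with AR1-651 by -0.04 without AIL and by 0.40 with AIL, a gap of 0.44, and its value without AIL turned positive with median-ratio scaling.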

How the results depend on the processing

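No paired analysis was possible because each condition had 1 library, and for the same reason no library could be left out. With AIL and empty vector, 5 hosts passed 2-fold on the higher side and 8 passed 1.5-fold, as did 20.9% of all genes. With AIL and AR1-651, the number at least 2-fold lower went from 1 to 0 with equal RPKM sums. For AR1-651 against empty vector, the number of hosts past the threshold on the higher side was 2 as reported, 6 with median-ratio scaling, 0 with equal RPKM sums, 1 with equal sums without ribosomal protein genes, 6 at 1.5-fold (10.7% of all genes), 1 without the length trend and 0 without the length and GC trend, which was added after seeing the data. Between the libraries with AIL, 1 host was at least 1.5-fold higher (0 at 2-fold), as were 7.73% of all genes. The median of the hosts ran from 0.93 to 1.04 for AIL with empty vector, from 0.44 to 0.85 for AIL with AR1-651, from 0.43 to 1.05 for AR1-651 without AIL and from 0.19 to 0.37 with AIL. Over all genes, median-ratio scaling changed the share higher and lower with AR1-651 from 4.01% and 11.6% to 7.29% and 5.59%, and with AIL and AR1-651 from 14.9% and 5.74% to 10.8% and 8.62%. Between the libraries with AIL, removal of the length trend changed 1.46% and 3.53% to 1.81% and 2.58%. Of 240 alternative values of single hosts, leaving out the filters on low RPKM, which cannot move them, 215 kept their sign and their side of 2-fold, 11 no longer reached 2-fold, 4 newly did and 10 turned a sign below 2-fold. The number of reads was not given, and neither it nor a counting error was worked out from the steps of short genes. Values of the least abundant hosts may rest on few reads.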

Other observations

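Protein-coding hosts of snoRNAs, set beside the noncoding ones, had medians of -0.19 for AIL with empty vector and -0.05 for AIL with AR1-651. In either background 0 of 14 were at least 2-fold higher, where 9.53% and 14.9% of all genes were. HSPA8, the constitutive HSP70 chaperone, was the 1 gene of the list at least 2-fold lower, where 9.03% and 5.74% of all genes were. HSPA8 had 847 and 324 RPKM with empty vector and 1059 and 281 RPKM with AR1-651, without and with AIL. EEF2, the elongation factor that moves the ribosome, had 2384 and 1380 RPKM with empty vector and 1617 and 917 RPKM with AR1-651. EIF4A2 had the largest difference upwards with AR1-651 (0.96), and PPAN, a ribosome assembly factor, with empty vector (0.81).

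The proteins that assemble with snoRNAs, 17 genes, had medians of 0.27 and 0.37 for AIL with empty vector and with AR1-651. NOP56, a core protein of box C/D particles, had 66.2 and 165 RPKM with empty vector and 80.3 and 158 RPKM with AR1-651. It was the 1 gene of the list at least 2-fold higher with empty vector (1.31), where 9.53% of all genes were. Its difference with AR1-651 was 0.97. ZNHIT6 (1.35) and NOP58 (1.16) were at least 2-fold higher with AR1-651, where 14.9% of all genes were. NHP2, of box H/ACA particles, was at -0.51 with AR1-651. With empty vector the lowest difference was that of NAF1, at -0.29.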
